A study of Mus musculus with 18 samples.

Results

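RNA that came down with an antibody to Kif5A was compared between the axoplasm of sciatic nerves and that of dorsal roots of the same mice. The comparison rests on 6 of the 18 libraries of the study, 3 Kif5A precipitates of sciatic nerve and 3 of dorsal root, each chosen by its label. Beside them stand the inputs (axoplasm before precipitation) and the precipitates with rabbit IgG, the isotype control, with 3 libraries for each tissue and kind. All mice were C57B6 and untreated as far as the labels say, their age is not stated in the labels, and each library pools 5 animals, so that differences between animals are not seen. Tissue was ground whole and cleared by a spin, per the labels' protocols, and about 200 ug of lysate met 10 ug of antibody for 3 h. Such axoplasm is enriched in axon contents but holds cytoplasm of every cell type that grinding opens. With bulk samples, fewer cells of a type and less RNA per cell cannot be told apart.

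Kif5A is the mainly neuronal heavy chain of kinesin-1, the motor that walks along microtubules away from the cell body, and its light chains and adaptors link it to vesicles, mitochondria and ribonucleoprotein granules. The dorsal root holds the central branches of sensory axons, lies inside meninges and reaches the border with the spinal cord, where astrocytes and oligodendrocytes take over from Schwann cells. The sciatic nerve is a mixed nerve of sensory, motor and sympathetic axons, wrapped in perineurium and in an epineurium rich in collagen and fat.

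The genes that stood farthest apart included the hormone gene Lep (leptin of fat cells), higher in sciatic nerve, and Ngp (a granule protein of maturing neutrophils), lower in sciatic nerve. Both belong to lineages that use transcription factors of the C/EBP family, so their promoters are shown as RefSeq gives them on GRCm38.p6, from 250 bases before to 50 after the gene start, with matches to TTGCNNAA on either strand in capitals. The promoter of Lep (chr6:29059971-29060270, plus strand) has 1 match, which starts 55 bases before the RefSeq gene start, and that of Ngp (chr9:110419558-110419857, plus strand) has 2, which start 138 and 11 bases before it. GENCODE, which gives the gene coordinates below, starts Ngp at a different base within the stretch shown, so these distances hold for the RefSeq start alone.
Lep: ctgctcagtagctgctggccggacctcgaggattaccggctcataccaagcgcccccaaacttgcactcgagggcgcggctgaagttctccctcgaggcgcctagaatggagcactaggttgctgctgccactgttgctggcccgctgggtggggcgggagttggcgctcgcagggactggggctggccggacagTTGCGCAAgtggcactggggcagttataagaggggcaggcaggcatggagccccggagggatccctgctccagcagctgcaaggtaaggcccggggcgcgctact
Ngp: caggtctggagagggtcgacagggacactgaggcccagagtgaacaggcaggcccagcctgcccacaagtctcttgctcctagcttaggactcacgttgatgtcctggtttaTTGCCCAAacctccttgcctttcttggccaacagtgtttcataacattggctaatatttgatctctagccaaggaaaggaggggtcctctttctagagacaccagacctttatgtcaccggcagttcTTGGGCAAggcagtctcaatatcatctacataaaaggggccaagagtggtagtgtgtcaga

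Such a match stood in 10.8% of all 32851 RefSeq promoters, in 8.44% of those of the genes tested, in 14.6% of those of the genes called higher in sciatic nerve and in 14.1% of those called lower. RefSeq promoters were found for 126 of the 208 higher and 124 of the 165 lower genes. Among the called fat cell genes with a promoter, Lep was the only 1 of 6 with a match, while 4 of 7 called neutrophil genes had one (Lcn2, Ngp, Retnlg and S100a9). The TATA motif TATAAA, searched on both strands as well, stood in 21.2% of promoters of higher genes, 9.40% of lower genes and 7.39% of genes tested. The CCAAT motif was found in 38.4%, 38.9% and 37.5% of these. A match only describes the letters of the promoter.

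Library totals over rows with a gene name were 14658466, 19897848 and 17297357 counts for Kif5A precipitates of sciatic nerve and 15385098, 14731865 and 18705668 for those of dorsal root. Of 12239 genes tested, 208 (1.7%) were higher and 165 (1.35%) lower in sciatic nerve with edgeR at an adjusted p of 0.05, and of these 155 and 141 differed more than 4-fold. The median log2 fold change of all genes tested was 0.019, and levels are given in CPM, a count scaled to the library total of the named rows after TMM scaling. Genes whose 3 sciatic nerve libraries all lay above, or all below, the 3 of dorsal root made up 9.3% and 9.66% of those tested. Such separation was a condition for naming the genes with the largest changes, so for those it is not a result. Replicate 3 of sciatic nerve stood apart: genes of fat cells summed to 60398, 40445 and 5879 CPM in sciatic nerve replicates 1, 2 and 3, against 289, 278 and 168 CPM in dorsal root. In the inputs these sums were 11476, 13417 and 3846 CPM in sciatic nerve, against 212, 221 and 125 CPM in dorsal root. With IgG they were 80236, 57739 and 27051 CPM in sciatic nerve, above those with Kif5A in every replicate, against 307, 348 and 192 CPM in dorsal root. The part of fat, or of any other cell type described below, in the differences of other genes was not tested. RNAs retained in the nucleus, such as Malat1, summed to 41722, 52526 and 8492 CPM in sciatic nerve and 34320.0, 27279 and 13582 CPM in dorsal root, so that replicate 3 was the lowest in both tissues. The number called depended on which libraries were used. It was 693 (368 higher and 325 lower of 12365 tested) without sciatic nerve replicate 3, 243 without replicate 1 and 183 without replicate 2. Without dorsal root replicates 1, 2 and 3 it was 199, 185 and 256. The gene lists below were recounted only without sciatic nerve replicate 3, the only removal that raised the number called. Those recounts stand against 368 higher and 325 lower of 12365 genes, not against 1.7% and 1.35%. DESeq2 called 867 genes. The lists of genes by cell type and function named below were described by how many members were called beside the percentages of all genes, and 50 of the 208 higher and 51 of the 165 lower genes stood in at least 1 of the 36 lists.

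**Figure D1:**
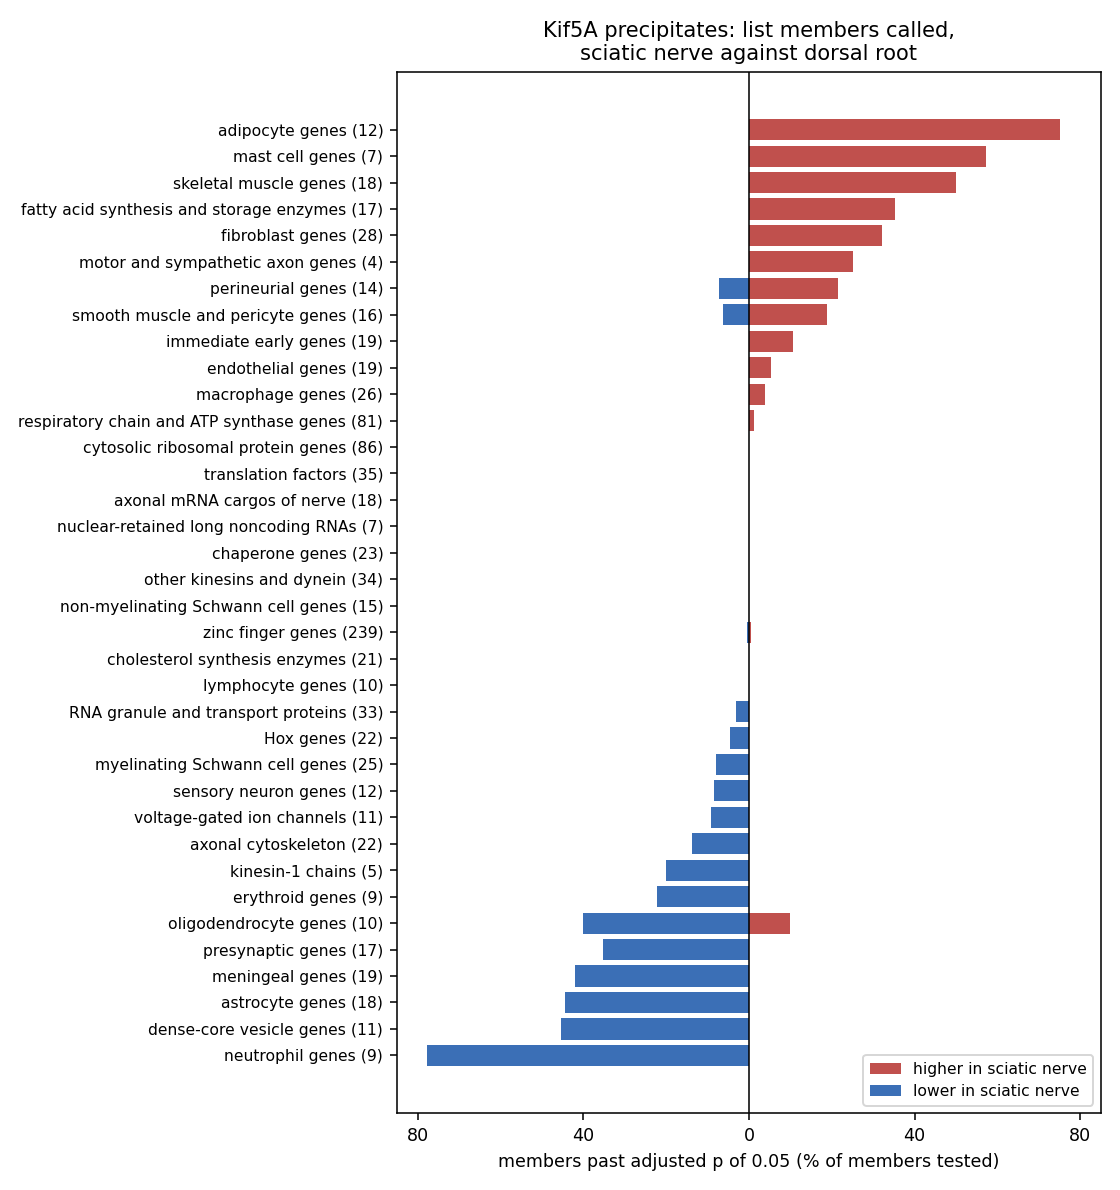
Share of the tested members of each gene list that passed an adjusted p of 0.05 in edgeR, in % on the horizontal axis, with members higher in Kif5A precipitates of sciatic nerve to the right of 0 and members lower there to the left; the number tested is given after each list name. Of all genes tested 1.7% were higher and 1.35% lower, and fat cell genes reach 75% on the right while neutrophil genes reach 77.8% on the left.

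Fat cell genes had the highest median of the 36 lists. Of 12 tested, 9 were higher and none lower, with a median log2 fold change of 6.58 against 0.019 for all genes. Another 8 of the 21 listed genes, among them Plin1 and Cidec of the lipid droplet coat, stood in the sciatic nerve table alone. So did 773 of all 13555 gene names of that table. Lep (chromosome 6, 29060220 to 29073877) had 485, 289.7 and 68.2 CPM in the Kif5A precipitates of sciatic nerve, against 0.482, 0.500 and 0.558 CPM in those of dorsal root. Every sciatic nerve library lay above every dorsal root library, with replicate 3 the lowest of its group, and the difference was 539-fold (log2 9.07, SE 0.80, adjusted p = 0.000263). Adipoq, which encodes the fat cell hormone adiponectin (chromosome 16, 23146536 to 23158028), had 5113, 2818 and 568 CPM in sciatic nerve, against 10.2, 10.6 and 7.36 CPM in dorsal root. Retn, which encodes resistin (chromosome 8, 3655770 to 3660110), had 1099, 1021 and 239 CPM in sciatic nerve and 4.22, 2.19 and 3.29 CPM in dorsal root. Both hormones again fell into groups that did not overlap, a condition for genes named among the largest changes. The groups were 301-fold apart for Adipoq (SE of log2 0.83, adjusted p = 0.000558) and 243-fold for Retn (SE of log2 0.69, adjusted p = 0.000258).

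Replicate 3 of sciatic nerve was the lowest of its group for other genes of fat as well. Fabp4, a fatty acid carrier (chromosome 3, 10204088 to 10208576), had 6624, 7450.2 and 1288 CPM in sciatic nerve and 22.9, 31.8 and 33.02 CPM in dorsal root. For Cfd, which encodes the complement protease adipsin (chromosome 10, 79890853 to 79892655), the levels were 42896, 24290.0 and 3114 CPM in sciatic nerve and 65.7, 71. and 44. CPM in dorsal root. Car3, a carbonic anhydrase abundant in fat and muscle (chromosome 3, 14863512 to 14872523), had 20093, 11283 and 2915 CPM in sciatic nerve and 58.8, 44.6 and 47.5 CPM in dorsal root. In these 3 genes even replicate 3 lay far above dorsal root, with log2 fold changes of 7.45 (SE 0.73), 8.60 (SE 1.00) and 7.83 (SE 0.77) and adjusted p-values of at most 0.00114. Adrb3, the beta-3 adrenergic receptor that drives lipolysis (chromosome 8, 27225776 to 27250616), had lower levels, at 92.3, 50.3 and 33.3 CPM in sciatic nerve and 0.482, 0.437 and 0.948 CPM in dorsal root. It was 92.4-fold higher in sciatic nerve (adjusted p = 0.000273). Adig (adipogenin), Ces1d (a carboxylesterase that splits triglycerides), Pon1 (a lipoprotein-bound paraoxonase), Cyp2e1 (a cytochrome P450) and Tmem45b were also among the genes with the largest rise in sciatic nerve, with log2 fold changes of 9.0, 8.26, 8.80, 8.16 and 8.27 and adjusted p-values between 0.000365 and 0.000763. Adig did not pass with limma-voom (adjusted p = 0.0663).

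Enzymes of fatty acid synthesis and storage were also called higher in part: 6 of 17 tested, with none lower and a median of 1.70. Scd1, a desaturase that introduces double bonds into fatty acids (chromosome 19, 44394455 to 44407879), had 15540.0, 14487 and 4889.8 CPM in sciatic nerve and 738, 627 and 756 CPM in dorsal root. Thrsp, a regulator of lipogenesis (chromosome 7, 97412938 to 97417730), had 2539, 2223 and 333 CPM in sciatic nerve and 24.96, 26.04 and 32.5 CPM in dorsal root. The libraries of the tissues did not overlap for either gene (16.5-fold for Scd1, adjusted p = 0.00161, and 61.03-fold for Thrsp, adjusted p = 0.00155). Dgat2, which makes triglycerides (chromosome 7, 99153658 to 99182719), had 2569, 1231 and 159.5 CPM in sciatic nerve and 45.9, 29.4 and 38.1 CPM in dorsal root, with log2 5.12 (SE 0.84, adjusted p = 0.00943). Its adjusted p was up to 0.0570 when dorsal root replicate 2 or 3 was left out or the IgG libraries were in the fit. Enzymes of cholesterol synthesis, which Schwann cells need for myelin, gave no call among 21 tested, and 1 was lower without sciatic nerve replicate 3. Their median was -0.29, and the smallest p belonged to the squalene synthase gene Fdft1, at 211, 195 and 322 CPM in sciatic nerve and 438, 488 and 489 CPM in dorsal root (log2 -0.96, adjusted p = 0.136).

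Genes of mast cells and of skeletal muscle were higher in Kif5A precipitates of sciatic nerve too. Of 7 mast cell genes tested 4 were higher (median 5.13) and of 18 muscle genes 9 (median 2.74), with none lower in either list. The mast cell list summed to 174, 168 and 202 CPM in sciatic nerve and 14.9, 27.2 and 17.4 CPM in dorsal root, and the muscle list to 666, 929 and 805 CPM in sciatic nerve and 145, 129 and 205 CPM in dorsal root. Mcpt4, a chymase of connective tissue mast cells (chromosome 14, 56059629 to 56062313), had 41.9, 48.1 and 54.2 CPM in sciatic nerve and 0.0603, 0.0624 and 0.446 CPM in dorsal root (238-fold, adjusted p = 0.000263). The tryptase Tpsb2 and the chymase Cma1 were 89.1-fold and 87.3-fold higher (adjusted p = 0.000763 and 0.00211). Unlike the fat cell genes, these 3 proteases were highest in replicate 3. Mast cell proteases have near copies, and how reads were shared among them is not known. Ckm, the muscle creatine kinase (chromosome 7, 19404776 to 19422841), had 135, 161 and 146 CPM in sciatic nerve and 8.14, 13.2 and 12.05 CPM in dorsal root, 13.2-fold apart (SE of log2 0.32, adjusted p = 0.000206). Acta1, the skeletal muscle actin (chromosome 8, 123891769 to 123894751), had 222, 333 and 283 CPM in sciatic nerve and 20.02, 8.49 and 31.7 CPM in dorsal root (13.9-fold, adjusted p = 0.00181). The calcium pump Atp2a1 was 11.8-fold higher in sciatic nerve (adjusted p = 0.00161). The 3 sciatic nerve libraries lay close together for Ckm and Acta1 and well above dorsal root. With all 12 precipitates in the fit the calls of Ckm and Atp2a1 were lost (adjusted p = 0.0620 and 0.114).

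**Figure D2:**
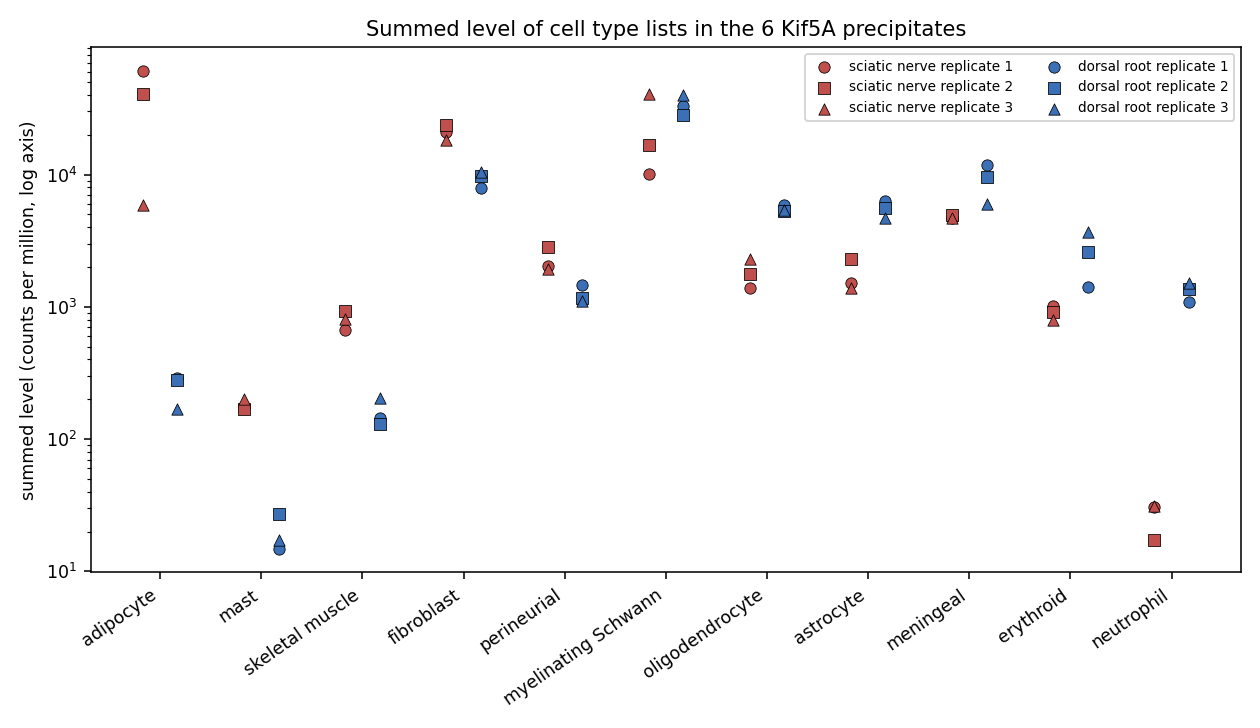
Summed level of the genes of each cell type list in the 6 Kif5A precipitates, in CPM of the named rows without TMM scaling on a log axis, with sciatic nerve left of dorsal root and a marker shape for each replicate. Fat cell genes reach 60398 CPM in sciatic nerve replicate 1 and 5879 CPM in replicate 3, both above the 168 to 289 CPM of dorsal root, and myelinating Schwann cell genes run the other way among the sciatic nerve libraries, at 10162 CPM in replicate 1 and 40469 CPM in replicate 3.

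Among stromal genes, those of fibroblasts were higher in 9 of 28 tested, with none lower and a median of 1.31. Without sciatic nerve replicate 3 the number higher was 13. The list summed to 21050.0, 23828 and 18359 CPM in sciatic nerve and 7874, 9782 and 10410.0 CPM in dorsal root. Dpt, which encodes the matrix protein dermatopontin (chromosome 1, 164796644 to 164824266), had 562, 448 and 188 CPM in sciatic nerve and 18.03, 18.05 and 17.3 CPM in dorsal root. Dorsal root libraries were nearly equal, and sciatic nerve lay 22.4-fold higher (SE of log2 0.43, adjusted p = 0.000420). Smoc2, a secreted calcium-binding protein (chromosome 17, 14279506 to 14404790), had 2556, 3312 and 2319.8 CPM in sciatic nerve and 543, 653 and 734 CPM in dorsal root (4.24-fold, adjusted p = 0.00573, and 0.0658 without dorsal root replicate 2). Ly6a, also known as Sca-1, was 5.13-fold higher (adjusted p = 0.00120). Perineurial genes, of the sheath around nerve fascicles, gave 3 higher and 1 lower of 14, with a median of 1.01. Without sciatic nerve replicate 3 the numbers were 2 and 1. The netrin relative Ntng1 and the Wnt regulator Shisa3 were 5.35-fold and 2.93-fold higher (adjusted p = 0.0332 and 0.0135). Moxd1, a monooxygenase relative, was lower, at 45.5, 38.6 and 28.8 CPM in sciatic nerve and 118, 91.04 and 106 CPM in dorsal root (log2 -1.48, adjusted p = 0.0246). The calls of Ntng1, Shisa3 and Moxd1 were lost in 7, 5 and 6 of 16 alternatives, among them without sciatic nerve replicate 2 and without dorsal root replicate 1 or 2. With the replicate number as a block the adjusted p of Ntng1 was 0.0751.

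The endothelial, macrophage and lymphocyte lists gave at most 1 call each. Of 16 genes of smooth muscle and pericytes, 3 were higher and 1 lower (median 1.19), which is 18.75% and 6.25%, against 1.7% and 1.35% of all genes. Without sciatic nerve replicate 3 the numbers were 5 and 1. The actin Acta2, of smooth muscle, and the actin-binding Synpo2 were 4.57-fold and 7.91-fold higher (adjusted p = 0.00650 and 0.00211), while Vtn, which encodes vitronectin (chromosome 11, 78499091 to 78502324), was lower at 40.6, 30.5 and 35.7 CPM in sciatic nerve and 271, 239 and 389 CPM in dorsal root (log2 -3.07, adjusted p = 0.000491). The calls of Acta2 and Synpo2 were lost when the IgG libraries shared the fit. Of 19 endothelial genes only Plvap, of fenestrated capillaries (chromosome 8, 71497765 to 71511752), passed, with 125, 96.6 and 38.97 CPM in sciatic nerve and 4.70, 4.31 and 6.30 CPM in dorsal root (16.98-fold, adjusted p = 0.00120, and 0.0975 with all 12 precipitates in the fit). Of 26 macrophage genes only the folate receptor Folr2 passed (5.0-fold higher, adjusted p = 0.0120, and 0.0565 without sciatic nerve replicate 2). None of 10 lymphocyte genes did (2 were lower without sciatic nerve replicate 3), and the smallest p there was that of Cd8b1 (adjusted p = 0.121).

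Neutrophil genes had the lowest median of the 36 lists. Of 9 tested, 7 were lower in sciatic nerve and none higher, with a median log2 fold change of -6.85. Another 9 genes of the list stood in the dorsal root table alone, as did 1997 of all 14779 gene names of that table. Their levels in its Kif5A libraries ran from a mean of 93.6 CPM for Ltf to 0.066 CPM for Stfa1 and no count for Stfa2. The list summed to 30.5, 17.1 and 30.99 CPM in sciatic nerve and 1092, 1365 and 1525 CPM in dorsal root. Most of the sciatic nerve sum came from Mmp9, a member at 20.4, 9.14 and 28.2 CPM after TMM scaling. Mmp9 had 33.8, 35.3 and 29.1 CPM in dorsal root and was not called (edgeR adjusted p = 0.529). Ngp (chromosome 9, 110419747 to 110423012), whose promoter is shown above, had 1.09, 0.762 and 1.35 CPM in Kif5A precipitates of sciatic nerve, against 422, 472 and 388 CPM in those of dorsal root. The 3 libraries of each tissue lay close together, 401-fold apart (log2 -8.65, SE 0.40, adjusted p = 6.97e-06), and no gene had a smaller p. S100a9, a calcium-binding protein stored in neutrophils (chromosome 3, 90692632 to 90695721), had 1.09, 0.355 and 0.385 CPM in sciatic nerve and 54.1, 87.2 and 122 CPM in dorsal root. Retnlg, a secreted relative of resistin (chromosome 16, 48872621 to 48874496), had 0.0684, 0.102 and 0.192 CPM in sciatic nerve and 54.6, 47.5 and 91.5 CPM in dorsal root. Both were far below dorsal root in all 3 libraries (log2 -7.18 and -8.98, adjusted p = 0.000177 and 3.23e-05). Erythroid genes were lower in 2 of 9 tested, with a median of -1.60. The anion exchanger Slc4a1 was among them (1.37, 1.73 and 0.256 CPM in sciatic nerve, 53.96, 91.9 and 67.7 CPM in dorsal root, adjusted p = 0.000725). The haemoglobin genes Hba-a1, Hba-a2, Hbb-bs and Hbb-bt, named with their values in view, had log2 fold changes between -1.78 and -1.02 and adjusted p-values between 0.0939 and 0.611. The summed level of the erythroid list was 1022, 919 and 798 CPM in sciatic nerve and 1399.9, 2583 and 3695 CPM in dorsal root.

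Genes of central nervous system glia were called lower in sciatic nerve with Kif5A, as they were in the inputs and with IgG. With Kif5A, 8 of 18 astrocyte genes tested were lower in sciatic nerve and none higher (median -1.81), and 10 were lower and 1 higher without sciatic nerve replicate 3. In the inputs 9 of 18 were lower and none higher, and with IgG 3 of 17 were lower and 1 higher. Among all genes 1.78% were lower in the inputs and 0.332% with IgG. With Kif5A the astrocyte list summed to 1524, 2299 and 1383 CPM in sciatic nerve and 6313, 5568 and 4671 CPM in dorsal root. Gfap, the astrocyte intermediate filament (chromosome 11, 102887336 to 102900912), had 3.42, 6.96 and 5.0 CPM in sciatic nerve and 416, 477 and 492 CPM in dorsal root. Aqp4, the water channel of astrocyte end feet (chromosome 18, 15389496 to 15410982), had 1.23, 0.660 and 0.833 CPM in sciatic nerve and 351, 291 and 176 CPM in dorsal root. The glutamate transporter Slc1a2 (chromosome 2, 102658659 to 102790784) had 5.68, 5.28 and 6.41 CPM in sciatic nerve and 441, 289 and 300.3 CPM in dorsal root. In all 3 the tissues were far apart (89.7-fold, 301-fold and 59.3-fold lower in sciatic nerve, each with an adjusted p of 2.36e-05), and none of 16 alternatives lost a call. Bcan, which encodes brevican of the brain matrix (chromosome 3, 87987531 to 88000230), had 1 count over the 3 sciatic nerve libraries and 1587 over those of dorsal root, so that dorsal root was 1568-fold higher with an exact 95% interval from 281 to 61955. Such intervals cover counting error only, since reads copied by PCR and lacking molecular identifiers do not count molecules.

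Of 10 oligodendrocyte genes tested, 4 were lower and 1 higher (median -1.43), with 6 lower and 1 higher without sciatic nerve replicate 3, and 12 more stood in the dorsal root table alone. The list summed to 1398, 1778 and 2306 CPM in sciatic nerve and 5928, 5344 and 5434 CPM in dorsal root. Mobp, a protein of compact central myelin (chromosome 9, 120149707 to 120181484), had 0.479, 0.914 and 2.76 CPM in sciatic nerve, against 1053, 1457 and 1600.1 CPM in dorsal root. It was 989-fold lower in sciatic nerve (log2 -9.95, SE 0.70, adjusted p = 7.34e-05), with every alternative past the threshold. Cldn11, a tight junction protein of central myelin (chromosome 3, 31149920 to 31164324), had 2.26, 8.53 and 22.7 CPM in sciatic nerve and 103, 90.9 and 194 CPM in dorsal root (log2 -3.53, adjusted p = 0.0260). Its call was lost in 4 of 16 alternatives, among them without sciatic nerve replicate 2 and without dorsal root replicate 1 or 3 (adjusted p up to 0.149). Tmem88b was lower as well (log2 -3.01, adjusted p = 0.00847), a call lost without sciatic nerve replicate 2 and when the IgG libraries shared the fit. The member that was higher, Cspg4, was also counted among pericyte genes. Mag, 1 of the 4 lower members, was also counted among myelinating Schwann cell genes, and Mal stood in both of these lists too. Meningeal genes were lower in 8 of 19 tested with none higher (median -1.07), and 8 were lower and 1 higher without sciatic nerve replicate 3. Another 9 stood in the dorsal root table alone. The list summed to 4693, 4912 and 4697 CPM in sciatic nerve and 11775, 9511 and 5944 CPM in dorsal root. Ptgds, the prostaglandin D synthase of the leptomeninges (chromosome 2, 25466709 to 25470046), had 0.411, 0.254 and 0.961 CPM in sciatic nerve and 196, 167 and 278 CPM in dorsal root. Slc6a20a, a proline transporter, and Aldh1a2, which makes retinoic acid, were 117-fold and 22.3-fold lower in sciatic nerve, as Ptgds was 396-fold (adjusted p = 2.36e-05, 0.000830 and 2.85e-05). Outside the lists, the ligand Wnt4 (chromosome 4, 137277489 to 137299726) had 0.274, 0 and 0.577 CPM in sciatic nerve and 154, 172 and 124 CPM in dorsal root (adjusted p = 0.000177), and the iodide transporter Slc5a5 had 3 counts over the sciatic nerve libraries and 914 over those of dorsal root. Slc5a5 was 301-fold higher in dorsal root, with an exact 95% interval from 103 to 1462.

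**Figure D3:**
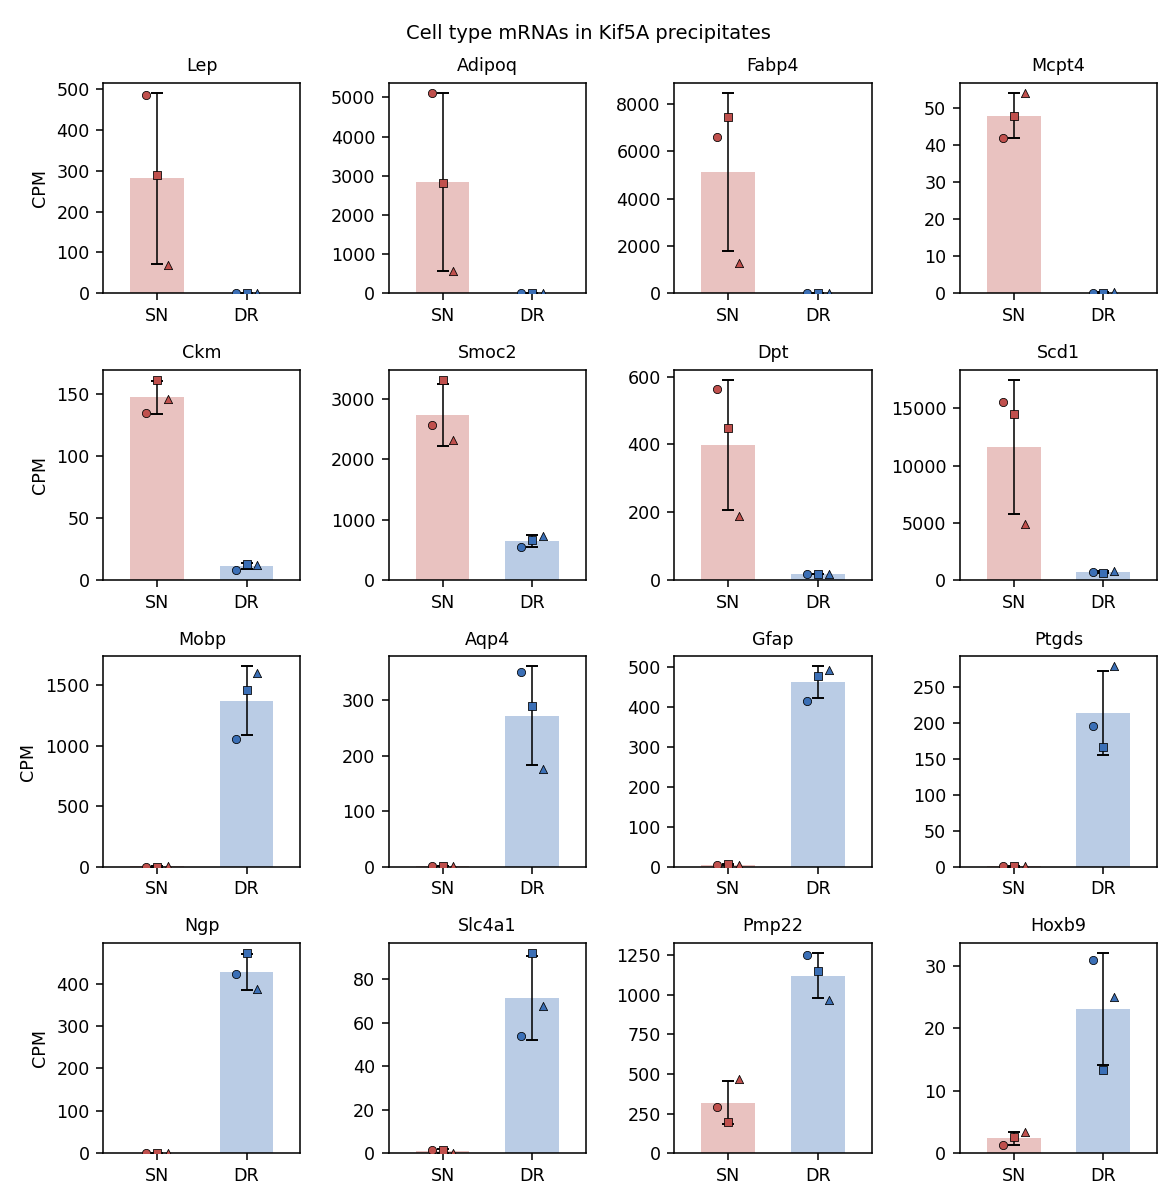
Level of 16 genes of cell types in Kif5A precipitates, in CPM, with sciatic nerve (SN) left of dorsal root (DR) in each panel; bars are means of 3 libraries, error bars are SD, and points are single libraries (circle, square and triangle for replicates 1, 2 and 3). The upper 8 genes are higher in sciatic nerve and the lower 8 lower, and fat cell genes such as Lep are lowest in replicate 3 of sciatic nerve (68.2 CPM).

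Genes of myelinating Schwann cells, the main cell of both tissues, had a median below that of all genes, and few passed. Of 25 tested, 2 were lower and none higher, with a median of -0.95. Without sciatic nerve replicate 3 the number lower was 16, in a fit where 325 of all 12365 genes tested were lower. Their summed level was 10162, 16632 and 40469 CPM in sciatic nerve and 33044, 28335 and 39618 CPM in dorsal root, so that replicate 3 of sciatic nerve, with the lowest fat cell sum, was above every dorsal root library and the other two were below them. Pmp22, a protein of compact peripheral myelin (chromosome 11, 63128982 to 63159547), had 291, 199 and 468 CPM in sciatic nerve and 1247, 1148 and 967 CPM in dorsal root (log2 -1.81, SE 0.36, adjusted p = 0.0235). Mag, a myelin glycoprotein next to the axon that oligodendrocytes also make (chromosome 7, 30899176 to 30914873), had 101.3, 89.4 and 219 CPM in sciatic nerve and 487, 440.4 and 520.0 CPM in dorsal root (log2 -1.82, SE 0.37, adjusted p = 0.0274). Neither overlapped between tissues, yet both calls were lost without sciatic nerve replicate 1 or 2 and without dorsal root replicate 1 or 2, at adjusted p-values up to 0.169 and 0.147 over all alternatives. None of 15 genes of non-myelinating Schwann cells passed, and 1 was lower without sciatic nerve replicate 3. The apolipoprotein gene Apod had the smallest p there (log2 -1.49, adjusted p = 0.0733, and 0.0416 with the replicate number as a block).

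Members of the neuronal lists that passed the test were lower in the Kif5A precipitates of sciatic nerve, with 1 exception. The list of kinesin-1 chains gave 1 call of 5 tested, Kif5a itself. Kif5a (chromosome 10, 127225696 to 127263348) had 14.9, 22.3 and 59.7 CPM in sciatic nerve and 133, 189.9 and 110.3 CPM in dorsal root. The groups did not overlap, with replicate 3 of sciatic nerve the nearest to dorsal root, and the difference lay at the threshold (log2 -2.16, SE 0.50, adjusted p = 0.0485). It was not past the threshold in 9 of 16 alternatives, among them without sciatic nerve replicate 1 or 2 (adjusted p = 0.115 and 0.220) and without dorsal root replicate 1, 2 or 3 (adjusted p = 0.106, 0.176 and 0.0848), and its adjusted p was 0.0546 with the replicate number as a block. Without sciatic nerve replicate 3 its log2 fold change was -2.96 (adjusted p = 0.00191). This is mRNA in the precipitate and says nothing of how much Kif5A protein came down. The widely expressed paralog Kif5b (chromosome 18, 6201002 to 6242174) had 567, 530.4 and 618 CPM in sciatic nerve and 852, 696 and 619.5 CPM in dorsal root, just without overlap (log2 -0.34, SE 0.28, adjusted p = 0.711). Kif5c, the other neuronal heavy chain (chromosome 2, 49619298 to 49774778), had 72.4, 113 and 107 CPM in sciatic nerve and 144, 191 and 71.4 CPM in dorsal root (log2 -0.48, SE 0.37, adjusted p = 0.691). The light chain Klc1 (chromosome 12, 111758849 to 111807844) had 12.2, 10.8 and 13.5 CPM in sciatic nerve and 27.1, 31.2 and 20.1 CPM in dorsal root, without overlap, and did not pass (log2 -1.10, SE 0.39, adjusted p = 0.217). Among 34 other kinesin, dynein and adaptor genes none passed, and 2 were lower without sciatic nerve replicate 3. The smallest p belonged to Mapk8ip1, the kinesin-binding scaffold JIP1, at 7.59, 10.3 and 6.99 CPM in sciatic nerve and 31.2, 33.03 and 19.4 CPM in dorsal root (log2 -1.75, adjusted p = 0.0575).

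Presynaptic and secretory vesicle genes held most of the neuronal calls. In the inputs 8 of 17 presynaptic, 5 of 11 dense-core vesicle and 4 of 22 axonal cytoskeleton genes were lower too, with none higher. Their input medians were -1.10, -1.77 and -0.35. With IgG 1 of 16, 1 of 9 and none of 22 were lower, with medians of -1.54, -2.02 and -0.81. Among all genes 1.78% were lower in the inputs and 0.332% with IgG. With Kif5A 6 of 17 presynaptic genes were lower and none higher (median -1.10), and 8 of 18 were lower without sciatic nerve replicate 3. Another 6 of the 30 listed stood in the dorsal root table alone. The list summed to 1370.3, 1502 and 2791 CPM in sciatic nerve and 3049, 3237 and 4294 CPM in dorsal root, so that replicate 3 of sciatic nerve came nearest to dorsal root. Snap25, a SNARE of synaptic vesicle fusion (chromosome 2, 136713453 to 136782428), had 31.5, 24.4 and 34.03 CPM in sciatic nerve and 482, 589 and 453 CPM in dorsal root (16.9-fold lower, SE of log2 0.31, adjusted p = 8.67e-05). Sv2a, a synaptic vesicle membrane protein (chromosome 3, 96181151 to 96195521), had 0.205, 0.203 and 0.513 CPM in sciatic nerve and 66.1, 60.3 and 79.9 CPM in dorsal root. The vesicle protein Syngr3 (chromosome 17, 24685092 to 24689955) had 0.684, 0 and 0.192 CPM in sciatic nerve and 62.5, 39.3 and 27.2 CPM in dorsal root. Sv2a and Syngr3 were thus close to 0 in every sciatic nerve library and present in every dorsal root library (adjusted p = 3.30e-05 and 0.00211). The synaptotagmin Syt5, which stood outside the lists, had 2 counts over the sciatic nerve libraries. Dorsal root was 294-fold higher for Syt5, with an exact 95% interval from 81.1 to 2436. Dense-core vesicle genes, which package neuropeptides, were lower in 5 of 11 tested (median -2.24) and in 9 of 11 without sciatic nerve replicate 3. Chga, which encodes chromogranin A (chromosome 12, 102554969 to 102565028), had 1.30, 1.93 and 2.37 CPM in sciatic nerve and 18.99, 17.8 and 35.7 CPM in dorsal root (12.9-fold lower, adjusted p = 0.00468). Resp18, a secretory granule protein (chromosome 1, 75272199 to 75278415), was 15.6-fold lower (adjusted p = 0.00291), and the prohormone convertase Pcsk2 had 2 counts in sciatic nerve, with dorsal root 206-fold higher and an interval from 56.7 to 1706. The calls of Resp18 and Pcsk2 were lost when the IgG libraries shared the fit (adjusted p up to 0.679 and 0.236).

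The axonal cytoskeleton list had 3 lower genes of 22 and none higher, with a median of -0.66; without sciatic nerve replicate 3 it had 5. Nefl, the light neurofilament chain (chromosome 14, 68083863 to 68089095), had 23.7, 28.2 and 19.9 CPM in sciatic nerve and 146, 172 and 154 CPM in dorsal root. Tubb4a, a tubulin of neurons and oligodendrocytes (chromosome 17, 57080066 to 57087782), had 31.8, 28.99 and 77.6 CPM in sciatic nerve and 317, 331 and 363 CPM in dorsal root. Neither overlapped between the tissues, and both were lower in sciatic nerve (log2 -2.72, SE 0.29, adjusted p = 0.000643 for Nefl, and log2 -2.87, SE 0.41, adjusted p = 0.00436 for Tubb4a). Both calls were lost when the IgG libraries shared the fit, at adjusted p up to 0.382 for Nefl and 0.287 for Tubb4a. Tubb3, the neuronal beta-tubulin (chromosome 8, 123411424 to 123422015), had 5.27, 3.35 and 4.23 CPM in sciatic nerve and 29., 12.99 and 65.3 CPM in dorsal root, where replicates spread widely (log2 -3.06, SE 0.61, adjusted p = 0.0240). Its call was lost in 7 of 16 alternatives, including without sciatic nerve replicate 1 or 2 and without dorsal root replicate 1 or 3. Tubulin genes have near copies, and reads shared among them make each value uncertain. Tubb3 was also the only one of 12 sensory neuron genes to pass, and that list summed to 456, 508 and 302 CPM in sciatic nerve and 603, 538 and 449 CPM in dorsal root. Kcna2, a potassium channel beside the node of Ranvier (chromosome 3, 107101146 to 107115005), was the only one of 11 voltage-gated channel genes (log2 -2.25, adjusted p = 0.0487), and its call was lost in 10 of 16 alternatives, the removal of every single library except dorsal root replicate 3 among them, and with the replicate number as a block (adjusted p = 0.117).

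The exception was Slc6a2, the noradrenaline transporter of sympathetic axons (chromosome 8, 92960079 to 93001667). It had 12.7, 13.9 and 19.4 CPM in Kif5A precipitates of sciatic nerve and 0.121, 0.437 and 0.112 CPM in those of dorsal root. Sciatic nerve was 67.2-fold higher without overlap (log2 6.07, SE 0.76, adjusted p = 0.00157, and at most 0.0473 over 16 alternatives). It was the only call among 4 motor and sympathetic genes tested. Without sciatic nerve replicate 3, 1 gene of 5 in that list was higher and 1 lower. Of 33 proteins of RNA granules and RNA transport, the neuronal RNA-binding protein Elavl3 (chromosome 9, 22015005 to 22052023) was the only one past the threshold, at 0.411, 1.32 and 0.577 CPM in sciatic nerve and 75.7, 33.7 and 30.8 CPM in dorsal root (59.-fold lower, adjusted p = 0.000754). The ubiquitin ligase Hecw1 (chromosome 13, 14226438 to 14523228) had no count in the 3 sciatic nerve libraries and 11.9, 12.3 and 9.87 CPM in dorsal root, where it was at least 188-fold higher, set against 3 counts over the sciatic nerve group. Its adjusted p was 0.00133, and 0.112 with all 12 precipitates in the fit.

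**Figure D4:**
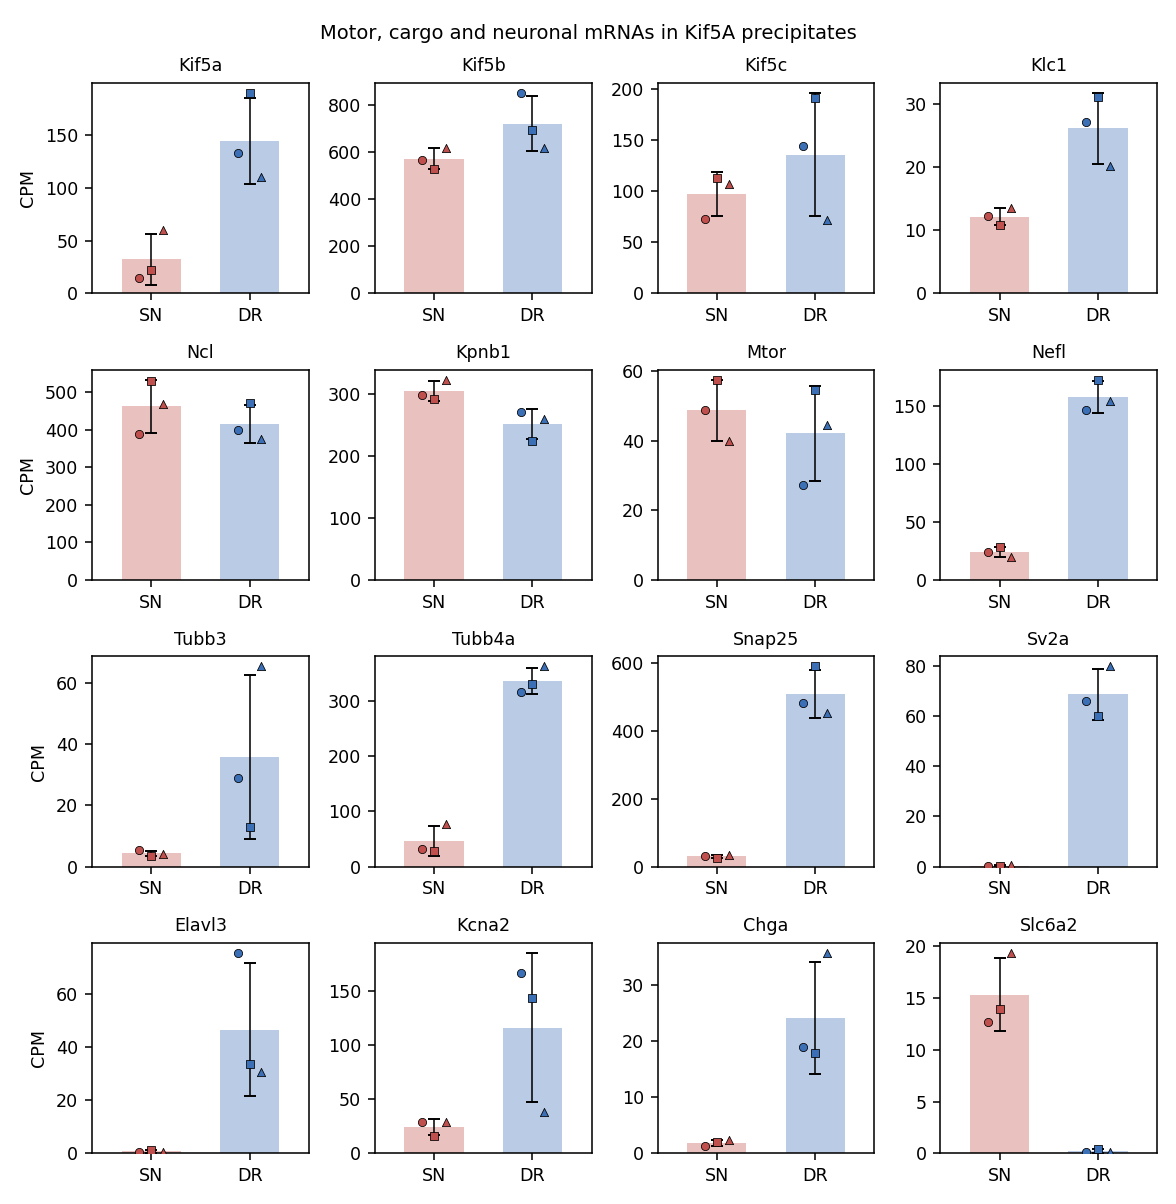
Level of motor, cargo and neuronal mRNAs in Kif5A precipitates, in CPM, with sciatic nerve (SN) left of dorsal root (DR); bars are means of 3 libraries, error bars are SD, and points are single libraries (circle, square and triangle for replicates 1, 2 and 3). The libraries of the tissues do not overlap for Snap25, Sv2a and Nefl, overlap for Ncl and Mtor, and are higher in sciatic nerve for Slc6a2.

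In a list of mRNAs known to travel in axons of nerve, none of 18 tested passed, and 1 was lower without sciatic nerve replicate 3. The median of that list was 0.08. Its 20 members are a selection, and the called genes of the axonal cytoskeleton list, Nefl, Tubb4a and Tubb3, are not among them. Ncl, which encodes nucleolin, an RNA-binding protein that links mRNAs to Kif5A (chromosome 1, 86344719 to 86359400), had 389.6, 529.7 and 469 CPM in sciatic nerve and 399, 471 and 376 CPM in dorsal root. Kpnb1, which encodes importin beta and has an axonal form of its mRNA (chromosome 11, 97159714 to 97187881), had 299, 293 and 323 CPM in sciatic nerve and 271, 224 and 259 CPM in dorsal root. Mtor, the growth-controlling kinase (chromosome 4, 148448611 to 148557683), had 48.9, 57.5 and 40.1 CPM in sciatic nerve and 27.4, 54.5 and 44.5 CPM in dorsal root. The libraries of the tissues overlapped for Ncl and Mtor, and for Kpnb1 all 3 sciatic nerve libraries lay above dorsal root by less than the test required. The log2 fold changes were 0.16 (SE 0.27, adjusted p = 0.877), 0.28 (SE 0.25, adjusted p = 0.746) and 0.21 (SE 0.35, adjusted p = 0.871). Vim, which encodes vimentin, had the smallest p of the list, at 990.3, 1303 and 2065 CPM in sciatic nerve and 475, 472 and 919 CPM in dorsal root (log2 1.22, adjusted p = 0.169). Gap43 and Actb, chosen after their values were seen, are growth cone and actin mRNAs often studied in axons. Gap43 had 13.7, 15.99 and 39.6 CPM in sciatic nerve and 48.1, 40.02 and 38.98 CPM in dorsal root, and Actb had 525, 1497 and 3020.0 CPM in sciatic nerve and 409, 454 and 1404 CPM in dorsal root, with adjusted p-values of 0.448 and 0.509. Actb spread more than 3-fold within either tissue, with replicate 3 the highest in both.

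Few genes of general cell function passed. None of 86 cytosolic ribosomal protein genes, 35 translation factors, 23 chaperones and 7 nuclear long noncoding RNAs passed, and without sciatic nerve replicate 3 the only call was 1 higher ribosomal protein gene. The medians were 0.33, 0.22, 0.07 and 0.07. The smallest p in these lists belonged to Rps19 (log2 1.72, adjusted p = 0.100), Eif1a (adjusted p = 0.269), Hsp90aa1 (adjusted p = 0.354) and the imprinted RNA Meg3 (log2 -2.02, adjusted p = 0.0956, and 0.0280 with the replicate number as a block). Of 81 respiratory chain and ATP synthase genes only Cox8b, the subunit of muscle and brown fat, passed, at 24.3, 78.2 and 26.7 CPM in sciatic nerve and 0.663, 0.500 and 3.07 CPM in dorsal root (adjusted p = 0.0101, and 0.0580 without sciatic nerve replicate 2, the highest library). Of 19 immediate early genes the transcription factors Fosl2 and Klf4 were higher (3.24-fold and 3.42-fold, adjusted p = 0.00907 and 0.0133), and either call was lost without dorsal root replicate 1 or 2. Of 239 zinc finger genes 1 was higher (Zfp947, adjusted p = 0.0480) and 1 lower (Zfp108, adjusted p = 0.0332), both smaller shares than among all genes, and both calls were lost without sciatic nerve replicate 1 or 2 and dorsal root replicate 1 or 2. With the replicate number as a block the adjusted p of Zfp947 was 0.0705. Hox genes record the body level of a tissue. Of 22 tested only Hoxb9 (chromosome 11, 96271457 to 96276595) passed, at 1.30, 2.54 and 3.40 CPM in sciatic nerve and 30.9, 13.3 and 25.04 CPM in dorsal root (log2 -3.25, adjusted p = 0.0129), and its call was lost without sciatic nerve replicate 2 and without dorsal root replicate 1 or 3. Without sciatic nerve replicate 3, 3 Hox genes were lower.

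The contrast between the inputs asks how far the tissues themselves differ before precipitation. Of 12215 genes tested in the inputs, 285 (2.33%) were higher and 218 (1.78%) lower in sciatic nerve, 503 in all. That count was 2538 without sciatic nerve input replicate 3, 298 and 335 without replicates 1 and 2, and 228, 220 and 279 without dorsal root input replicates 1, 2 and 3. Of the genes higher with Kif5A, 163 were also higher in input, which is 78.4% of the 208 and 57.2% of the 285. Of the genes lower with Kif5A, 109 were also lower in input, 66.1% of 165 and 50% of 218. All 208 higher genes had a positive log2 fold change in input, and 163 of 165 lower genes a negative one. Across the 7965 genes with at least 10 CPM in a tissue, the log2 fold changes with Kif5A and in input had a Pearson r of 0.847 and a Spearman rho of 0.651, a description across genes, which are not independent replicates. Lep in input stood at 57.1, 59.7 and 26.5 CPM in sciatic nerve and 0.815, 0.397 and 0.480 CPM in dorsal root (log2 6.37), Mobp at 3.55, 1.41 and 2.65 CPM in sciatic nerve and 307, 287 and 590.0 CPM in dorsal root (log2 -7.26). Kif5a in input stood at 7.48, 9.38 and 19.5 CPM in sciatic nerve and 53.01, 46.6 and 50.5 CPM in dorsal root (log2 -2.04, adjusted p = 0.0192), and Slc6a2 at 20.3, 12.9 and 6.67 CPM in sciatic nerve and 0.611, 0.510 and 0.420 CPM in dorsal root (log2 4.67, adjusted p = 0.00160). Each of these thus differed in the same direction in axoplasm that had met no antibody.

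**Figure D5:**
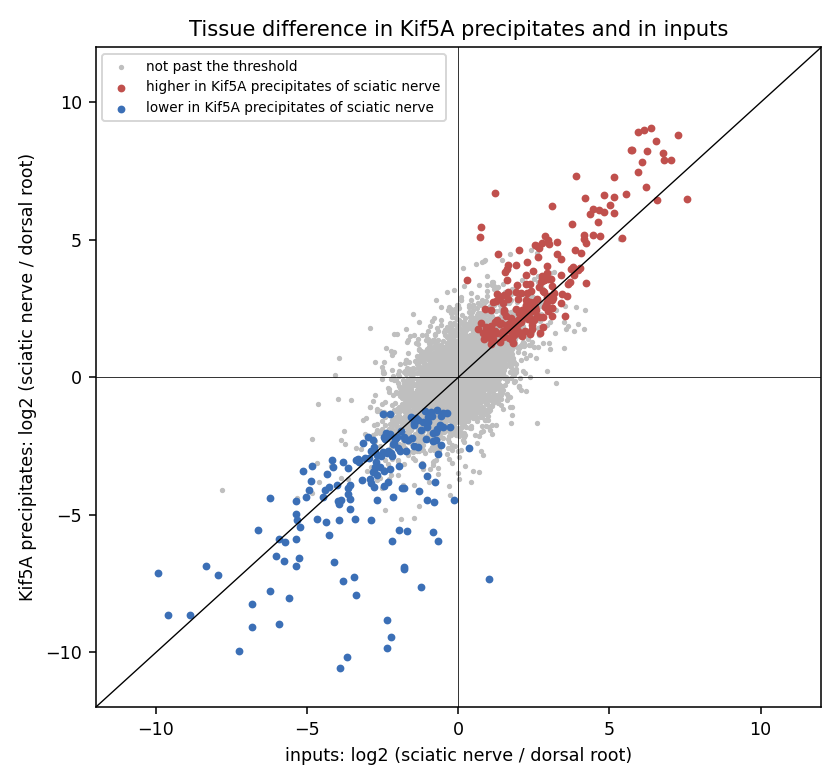
Log2 fold change of sciatic nerve over dorsal root in the Kif5A precipitates (vertical axis) against that in the inputs (horizontal axis) for the genes tested in both, with the 208 genes higher and 165 lower with Kif5A in colour and a line of equal change. Coloured genes lie in the upper right and lower left quadrants, except 2 lower genes that are positive in input.

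Whether the tissue difference with Kif5A departed from that in input was tested as the difference of the log2 fold changes. None of 12637 genes passed in edgeR (0% in either direction, with 382 or 3.02% at an unadjusted p under 0.05). The number was 15 with DESeq2, and 1 in edgeR without replicate 1 of the sciatic nerve input. The genes given next had the smallest p in each direction among those with at least 10 CPM in a group. None of them passed in edgeR, and order by p is not order by size of difference. Bcan had a difference of -6.39 (SE 0.98, adjusted p = 0.122), with 0.563, 1.25 and 1.91 CPM in the inputs of sciatic nerve and 17.8, 13.6 and 17.3 CPM in those of dorsal root. Hecw1 and Retnlg had differences of -6.49 and -3.0 (adjusted p = 0.316 and 0.573). In the other direction Plvap had a difference of 2.49 (adjusted p = 0.658), Clybl, a mitochondrial lyase, one of 2.02 (adjusted p = 0.731) and Mc2r, the corticotropin receptor, one of 5.56 (adjusted p = 0.716). Clybl had 127, 96.1 and 42.4 CPM in Kif5A precipitates of sciatic nerve and 25.8, 25.8 and 39.99 CPM in those of dorsal root, while the inputs had 21.9, 25.4 and 25.3 CPM in sciatic nerve and 27.1, 35.7 and 36.2 CPM in dorsal root. With IgG, Clybl had 336, 47.6 and 106 CPM in sciatic nerve and 55.03, 66.9 and 44.2 CPM in dorsal root.

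The IgG precipitates showed the tissue difference as well. Of 11443 genes tested, 83 (0.725%) were higher and 38 (0.332%) lower in sciatic nerve, 121 in all. That count was 64, 64 and 106 without sciatic nerve IgG replicates 1, 2 and 3, and 57, 51 and 88 without dorsal root IgG replicates 1, 2 and 3. With the replicate number as a block it was 68, of which 49 were higher and 19 lower. Of the 208 genes higher with Kif5A, 64 were also higher with IgG, 30.8% of that list and 77.1% of the IgG list, and of the 165 lower genes 26 were, 15.8% and 68.4%. Among genes measured with IgG, 200 of 203 higher and 145 of 149 lower genes had the same sign. Lep with IgG stood at 661, 359 and 177 CPM in sciatic nerve and 1.37, 1.28 and 0.115 CPM in dorsal root, and Mobp at 0.726, 1.20 and 7.68 CPM in sciatic nerve and 718, 1114 and 1002 CPM in dorsal root. The difference of the Kif5A and IgG contrasts passed for 1 gene in each direction (0.00797% of 12551 each, with 800 at an unadjusted p under 0.05, or 6.37%), Mmp9 with a difference of 7.44 (SE 0.97, adjusted p = 0.0364) and Dab2ip with one of -11.68 (SE 1.41, adjusted p = 0.0364). With the replicate number as a block neither passed (adjusted p = 0.116 for both), and of the fits without 1 library those without sciatic nerve IgG replicate 3 and dorsal root IgG replicate 3 gave 24 and 6 calls, that without sciatic nerve IgG replicate 2 gave 1 and the others 0. By p within each direction, the rule also named Fars2, a mitochondrial tRNA synthetase (difference 10.15, adjusted p = 0.0526), Brf2, a transcription factor of RNA polymerase III (difference 7.08, adjusted p = 0.0778), Syt15, a synaptotagmin (difference -10.64, adjusted p = 0.0838) and Myct1 (difference -7.15, adjusted p = 0.0867). Chga, described above as a dense-core vesicle gene, had a smaller p than Myct1, with a difference of 6.89 (SE 1.14, adjusted p = 0.0838). Its IgG libraries had 0, 0 and 0.0460 CPM in sciatic nerve and 28.6, 40.5 and 38.1 CPM in dorsal root. Neither Mmp9 nor Dab2ip passed between the tissues with Kif5A alone. Mmp9 is a secreted protease that also stood in the neutrophil list (chromosome 2, 164940780 to 164955850). It had 20.4, 9.14 and 28.2 CPM in Kif5A precipitates of sciatic nerve and 33.8, 35.3 and 29.1 CPM in those of dorsal root (log2 -0.77, adjusted p = 0.529). With IgG it had 0.0968, 0.434 and 0.0920 CPM in sciatic nerve and 57.6, 95.2 and 41.6 CPM in dorsal root. Dab2ip, a Ras GTPase activator (chromosome 2, 35558266 to 35730994), had 6.98, 3.45 and 5.83 CPM in sciatic nerve and 6.03, 3.56 and 6.19 CPM in dorsal root with Kif5A (log2 0.04, adjusted p = 0.986). With IgG it had 17.4, 28.4 and 24.6 CPM in sciatic nerve and, on the transcripts that both tables list, no count in dorsal root. With counts summed over all transcripts of a gene, the Dab2ip difference between the contrasts was -4.69 (edgeR adjusted p = 0.529).

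Genes listed for 1 tissue alone were left out of the test, since their level in the other tissue is not given by these tables. The sciatic nerve table held 773 such gene names, 79 of them over 5 CPM in Kif5A precipitates, and that of dorsal root 1997, of which 254 were over 5 CPM. Those with the highest level in dorsal root were Ermn, at 173, 163 and 93.8 CPM, and Mog, at 60.97, 77.4 and 69.2 CPM, both of central myelin, Zic1, a transcription factor of the meninges, at 136, 109 and 67.2 CPM, Ltf, the neutrophil lactoferrin, at 94.3, 108 and 78.2 CPM, and Igfbp2 and Ranbp3l, at means of 84.2 and 75.1 CPM. These 6 names stood in the oligodendrocyte, neutrophil and meningeal lists. In sciatic nerve, with predicted genes left aside, they were Apol6, at 161, 112 and 36.8 CPM, Cd209g, a lectin of macrophages, at 83.4, 59.9 and 37.6 CPM, Ces1f, a carboxylesterase, at 114, 47.6 and 8.38 CPM, Cd1d1, which presents lipid antigens, at 117, 32.3 and 1.27 CPM, and Tshr, the thyrotropin receptor, at 65.6, 42.9 and 15.5 CPM. Ctcflos, an antisense RNA, had 79.3, 26.9 and 2.66 CPM. Whether the counts separate its reads from those of the opposite strand is not stated. In each of these 6 the third sciatic nerve library was the lowest, as it was for the fat cell genes.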

How the data were processed

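Counts per Ensembl transcript were deposited as 1 table per tissue, and per the submitters' processing notes reads passed through CASAVA 1.8.2 onto mm10 (GRCm38) and edgeR; neither labels nor headers name the aligner, counter or filters. The tables were joined on the 16878 transcript identifiers that both hold and summed to 12697 gene names, so that a gene's count covers shared transcripts only. Rows without a name (0.138 to 0.237% of counts) were left out. The main test was edgeR 4.0.16 (quasi-likelihood, robust, TMM, filterByExpr, R 4.3.3) on the 6 Kif5A libraries, Benjamini-Hochberg threshold 0.05; differences between contrasts were interaction terms over 12 libraries. CPM used named-row totals and TMM factors, and summed list levels used totals alone. Per the series' design text both tissues came from the same animals, but no label ties equal replicate numbers to 1 pool, and same-numbered Kif5A libraries deviated together with r = 0.175, -0.022 and 0.221; a fit with the number as a block was an alternative. Coordinates are GENCODE M21 on GRCm38. Alternatives included DESeq2 1.42.0 and limma-voom 3.58.1, and 3 against 3 libraries allow an exact permutation p of 0.1 at best. Genes were named by rule. The 12 largest changes each way were taken from called genes above 10 CPM whose 3 and 3 libraries did not overlap. Also named were up to 3 members of each list by p, the largest differences between contrasts, and the 6 highest genes of each one-table set. Predicted genes were counted but not named. The members and lists were chosen with earlier results of these data known. The edgeR fit was tested on simulated counts for the Kif5A contrast and for the difference from input, with the same dispersion for all genes. The other methods and contrasts were not tested in that way.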

Additional observations from a re-analysis of the deposited data

Results flagged for a closer look

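For 2 genes the tissue difference with Kif5A departed from that with IgG by edgeR's test of the difference of the log2 fold changes. For Mmp9 the difference was 7.44 (SE 0.97, adjusted p = 0.0364). Its IgG libraries had 0.0968, 0.434 and 0.0920 CPM in sciatic nerve and 57.6, 95.2 and 41.6 CPM in dorsal root. For Dab2ip the difference was -11.68 (SE 1.41, adjusted p = 0.0364). It rests on dorsal root IgG libraries with no count on the transcripts that both tables list, and when counts were summed over all transcripts of a gene no gene passed.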

How the results depend on the processing

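For the Kif5A contrast the number called was 867 with DESeq2, 183 to 693 with single libraries left out, 124 with all 12 precipitates in the fit and 211 with all 18 libraries, against 373; the other count alternatives stayed within 1.5 times. A replicate block gave 349 calls (195 higher, 154 lower), and apart from the calls given with the results it changed no other call of a named gene. For the difference from input, against 0 calls, DESeq2 gave 15 and single libraries left out gave 0 to 1. For the difference from IgG, against 2 calls, library size alone, DESeq2's size factors in edgeR and the stricter filter gave 4 each, DESeq2 187, limma-voom 1, all transcripts 0, the replicate block 0, and single libraries left out 0 to 24. The input contrast gave 1061 with DESeq2 and 220 to 2538 with single libraries left out. The IgG contrast gave 288 with the stricter filter, 878 with DESeq2, 57 with limma-voom, 68 with the replicate block and 51 to 106 with single libraries left out. Of the 73 named genes called, over 16 alternatives each, 1048 results stayed past the threshold and 120, of 32 genes, did not; none of these reversed. Among named genes not called, Brf2 ranged from -0.126 without dorsal root replicate 2 to 0.403 without dorsal root replicate 1, Mtor from -0.021 without dorsal root replicate 1 to 0.438 without dorsal root replicate 2, and Dab2ip from -0.184 without sciatic nerve replicate 1 to 0.284 without sciatic nerve replicate 2; Dab2ip was -0.062 with library size alone and -0.009 with limma-voom. The cause of these shifts was not tested.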
